A study of Mus musculus with 16 samples.

Results

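The luminal keratins examined here are *Krt7* (ENSMUSG00000023039), *Krt8* (ENSMUSG00000049382), *Krt18* (ENSMUSG00000023043) and *Krt19* (ENSMUSG00000020911), 4 of the 23609 genes in the expression table. They were chosen by name as the keratins of simple and luminal epithelium, with earlier results of these data known. RNA-seq was performed on total RNA from primary mammary tumors of MMTV-PyMT mice, in which the MMTV promoter drives the polyoma middle T antigen in the mammary epithelium. All animals carried this transgene. The gene trap animals were also heterozygous for *Resf1* (*Resf1* +/-), since a lentiviral insertion in exon 1 cuts the transcript of that allele short. The insertion also encodes EGFP fused to cre. The wildtype animals were their littermates. The animals were F1 offspring of the gene trap strain and FVB/MMTV-PyMT mice, and tumors were collected without treatment. Because the animals were heterozygous, intact *Resf1* message could still be made from the other allele. Of 16 labelled tumors (8 per group), 5 wildtype and 5 gene trap tumors had values that could be matched by name, and these were used here.

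Keratins form the intermediate filaments of epithelial cells. A filament is built only from heterodimers of a type I and a type II chain, and a chain without a partner is degraded. *Krt8* (type II) and *Krt18* (type I) encode the primary pair of simple epithelia, *Krt7* (type II) and *Krt19* (type I) encode further chains of ductal and luminal cells, and in the mammary gland these 4 mark the luminal layer, whereas *Krt5* and *Krt14* mark the basal layer. The questions were how high these genes were expressed in the tumors, how steady each was from tumor to tumor, whether partner chains kept a fixed ratio, and whether any of this differed between gene trap and wildtype tumors.

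*Krt7*, *Krt8* and *Krt18* lie on mouse chromosome 15 and *Krt19* on chromosome 11. Promoter windows of RefSeq, covering 250 bases before and 50 bases after the annotated start, were found for 3 of the 4 genes, and *Krt19* had no entry. They are printed 5′ to 3′ because 2 of them belong to the partner genes of the primary filament pair (*Krt8* and *Krt18*), whose levels moved together, and the third to a keratin that followed them less closely. In build GRCm38.p6 they are chr15:102004293-102004592 on the minus strand (*Krt8*), chr15:102027966-102028265 on the plus strand (*Krt18*) and chr15:101412153-101412452 on the plus strand (*Krt7*). Capitals mark matches on either strand to the TATA-box letters TATAA and ATAAAA, to the GC-box letters GGGCGG and to the E-box letters CACCTG, and in *Krt8* the matches to TATAA on both strands and to ATAAAA overlap.
Krt8 promoter: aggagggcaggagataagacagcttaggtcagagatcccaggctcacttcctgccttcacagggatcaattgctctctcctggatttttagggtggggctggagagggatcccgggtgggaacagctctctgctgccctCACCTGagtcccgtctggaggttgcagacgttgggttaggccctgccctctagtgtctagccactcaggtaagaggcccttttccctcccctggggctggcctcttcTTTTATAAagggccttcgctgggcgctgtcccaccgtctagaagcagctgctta
Krt18 promoter: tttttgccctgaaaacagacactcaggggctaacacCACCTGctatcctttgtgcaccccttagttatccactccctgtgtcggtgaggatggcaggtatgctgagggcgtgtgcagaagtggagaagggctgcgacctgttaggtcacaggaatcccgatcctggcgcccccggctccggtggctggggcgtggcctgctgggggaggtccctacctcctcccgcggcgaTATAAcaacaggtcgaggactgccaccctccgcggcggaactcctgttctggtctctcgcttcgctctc
Krt7 promoter: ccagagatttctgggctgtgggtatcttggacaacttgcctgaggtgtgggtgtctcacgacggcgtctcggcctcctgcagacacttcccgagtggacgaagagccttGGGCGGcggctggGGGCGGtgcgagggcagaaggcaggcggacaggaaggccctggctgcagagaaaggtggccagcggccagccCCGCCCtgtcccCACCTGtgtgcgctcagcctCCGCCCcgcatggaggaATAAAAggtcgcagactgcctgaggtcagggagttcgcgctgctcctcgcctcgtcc

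The *Krt18* window held a TATAA that began 19 bases before the annotated start, and in the *Krt8* window the overlapping matches lay at the annotated start itself. The *Krt7* window had no TATAA but an ATAAAA 7 bases before the start. TATAA was present in 24.9% of the 32851 promoter windows of the same length and ATAAAA in 18.5%. GGGCGG matched 4 times in *Krt7* and at no place in *Krt8* or *Krt18*, against 35.7% of all windows with a match. CACCTG was found in each of the 3 windows and in 20.2% of all windows. AGATAA, the letters bound by GATA factors, was present only in the *Krt8* window of the 3 (11.2% of all windows). TGANTCA, the AP-1 motif, matched none of the 3 and 7.81% of all windows. These are matches of letters, and no binding was measured.

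The deposited values are fractional estimated counts per gene that were already scaled between tumors. Their form and the submitters' processing notes point to the median ratio method, which the methods name only for human RNA-seq. The depth of the libraries is unknown. Column totals were between 31995078 and 42153593. *Resf1* had a mean of 4099 ± 400 in wildtype and 3516 ± 361 in gene trap tumors (SD, n = 5 each), and the groups overlapped (limma log2 fold change -0.22, standard error 0.09, unadjusted p = 0.0313, adjusted p = 0.99972). Over the whole table gene trap replicate 2 was unlike the rest. In it 926 of the 21034 tested genes were more than 2-fold below every other tumor, against 11 to 53 in each of the other tumors, and the 2528 tested pseudogenes had a median log2 deviation of -0.95, against -0.05 to 0.11. Values without this tumor are given beside the results that it moved most.

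All 4 luminal keratins were expressed in every tumor, and *Krt18* and *Krt8* were among the most abundant messages of the table. By mean normalized value *Krt18* ranked 93rd, *Krt8* 114th, *Krt19* 738th and *Krt7* 2118th of 23609 genes. Together the 4 genes made up 0.124% (wildtype replicate 1) to 0.176% (gene trap replicate 5) of a column total. The luminal epithelial markers in the tumors were likewise abundant, as seen for the adhesion molecules *Epcam* (22261 ± 1598, SD, n = 10) and *Cdh1* (12435 ± 1087, SD, n = 10). The basal keratins were lower, with *Krt14* at 1867 ± 342 and *Krt5* at 964 ± 342 (SD, n = 10). Markers of the luminal and of the basal layer were thus both present, with the luminal ones higher. In bulk tumors fewer epithelial cells and less RNA per cell cannot be told apart.

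*Krt8*, the type II partner of *Krt18*, had normalized values of 17147, 20625, 22891, 24801 and 20071 in wildtype replicates 1 to 5, and of 17843, 21941, 16809, 21673 and 22291 in gene trap replicates 1 to 5. *Krt18* had 18434, 22858, 23748, 26192 and 20508 in the wildtype tumors, and 19151, 35379, 18970.0, 24654 and 26506 in the gene trap tumors. In both genes the groups overlapped. *Krt8* in gene trap replicate 3 was slightly below all wildtype tumors, and *Krt18* in gene trap replicate 5 slightly above them. *Krt18* in gene trap replicate 2 was 1.55-fold above the median of the other 9 tumors, while *Krt8* in the same tumor was within the range of the rest.

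*Krt19*, an unusually short type I chain, had 3241, 5546, 6866, 6961 and 6659 in wildtype replicates 1 to 5, and 5577, 6259.9, 3952, 5561 and 9305 in gene trap replicates 1 to 5. *Krt7*, the second luminal type II chain, had 2683, 3156, 2772, 3782 and 2548 in the wildtype tumors, and 2931, 3379, 2621, 2652 and 3332 in the gene trap tumors. The lowest *Krt19* value belonged to a wildtype tumor and the highest to a gene trap tumor, whereas both the lowest and the highest *Krt7* value belonged to wildtype tumors.

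**Figure D1:**
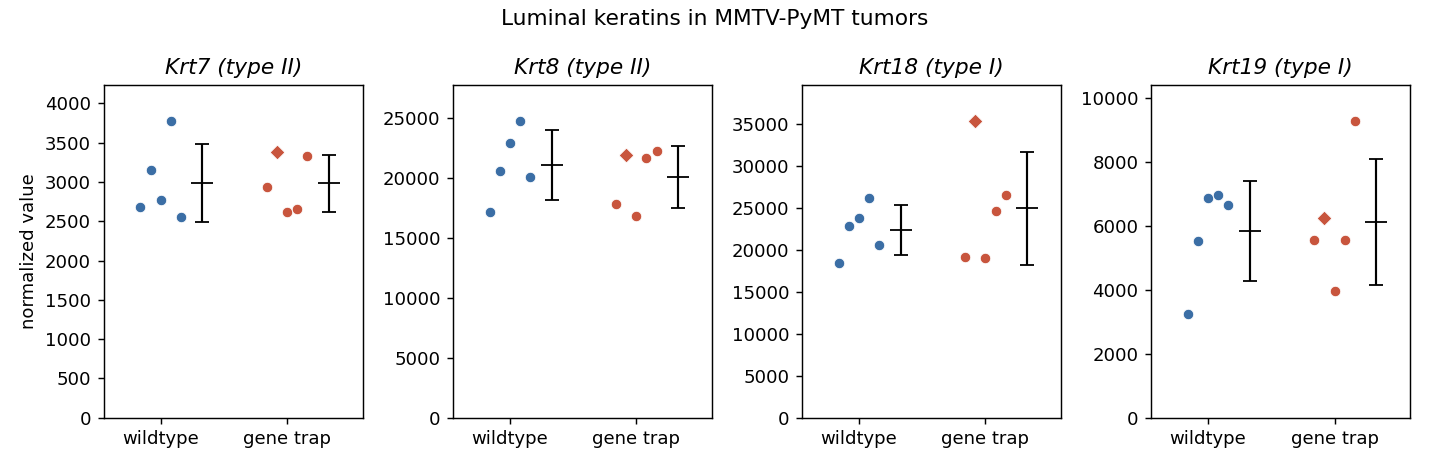
Normalized value (y axis) of each luminal keratin in 5 wildtype (blue) and 5 gene trap (red) tumors. Points are tumors in order of replicate number, the diamond is gene trap replicate 2, and bars are the mean ± SD of each group. The groups overlap in all 4 panels, and the diamond stands alone only for *Krt18*, at 35379.

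To compare levels between genes, values were divided by coding length (1470 bases for *Krt8*, 1269 for *Krt18*, 1371 for *Krt7* and 1209 for *Krt19*). Per kilobase of coding sequence the mean over 10 tumors was 18629 ± 4010 (SD) for *Krt18*, 14020 ± 1798 for *Krt8*, 4957 ± 1392 for *Krt19* and 2178 ± 299 for *Krt7*. The order *Krt18*, *Krt8*, *Krt19*, *Krt7* was found in 10 of 10 tumors. *Krt18* exceeded *Krt8* per kilobase by 1.18-fold to 1.87-fold (median 1.26), *Krt8* exceeded *Krt19* by 1.97-fold to 4.35-fold (median 2.91), and *Krt19* exceeded *Krt7* by 1.37-fold to 3.17-fold (median 2.13). *Krt18* and *Krt8* were the closest neighbours, and their ranges over tumors overlapped although the order within each tumor was the same. Coding length was used because the longest annotated transcript of *Krt7* has 4094 bases, and per kilobase of transcript *Krt7* was lower still, at 729 (mean over 10 tumors). The order between *Krt18* and *Krt8* also depends on how reads of *Krt8* were assigned.

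A processed pseudogene of *Krt8*, *Krt8-ps* on chromosome 7, had a high value in the table, at 5310 ± 714 (SD, n = 10). Its transcript in GENCODE matches 941 bases of the *Krt8* transcript, from the first coding base on, with 98.6% identity and 13 mismatches. A stretch of 60 coding bases, from base 817 to base 876 of the *Krt8* coding sequence, is printed 5′ to 3′. The 4 bases that differ are in capitals. It was picked as the matching stretch of this length with the most differences, so other stretches of this length within the match separate the reads no better. The match ends at base 1184 of the *Krt8* transcript, whereas the coding sequence runs on to base 1713, outside this match.
Krt8: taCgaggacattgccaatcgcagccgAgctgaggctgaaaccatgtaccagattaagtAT
Krt8-ps: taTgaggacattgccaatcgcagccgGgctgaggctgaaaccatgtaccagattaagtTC

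The value of *Krt8-ps* moved with that of *Krt8*. *Krt8-ps* had 4578, 5235, 5897, 6455 and 5559 in wildtype replicates 1 to 5, and 5061, 4131, 4654, 5628 and 5903 in gene trap replicates 1 to 5. The ratio of *Krt8-ps* to *Krt8* averaged 0.263 ± 0.00911 in wildtype and 0.255 ± 0.0383 in gene trap tumors (SD, n = 5 each). It was 0.188 in gene trap replicate 2, where pseudogenes as a class were low, and between 0.254 and 0.284 in the other 9 tumors. Across 14121 genes with a mean of at least 100, *Krt8-ps* was the gene whose log2 values followed *Krt8* most closely when gene trap replicate 2 was left out (Pearson r = 0.97 over 9 tumors), and it ranked 801st with it (r = 0.63 over 10 tumors). This is a description across tumors that share one scaling. The levels of *Krt8* and *Krt8-ps* are therefore uncertain, since the counting may have divided reads between them. With *Krt8-ps* added to *Krt8*, the sum exceeded *Krt18* in 9 of the 10 tumors by normalized value and in 5 of the 10 per kilobase of coding sequence. By normalized value it was 1.19 ± 0.0436 of *Krt18* in wildtype and 1.05 ± 0.180 in gene trap tumors (SD, n = 5 each), with 0.737 in gene trap replicate 2. For *Krt18* the closest other transcript was the pseudogene *Gm5200* (90.2% identity over 1269 bases), which had values of only 16.5 to 28.6. For *Krt19* no other transcript shared 100 bases at 90% identity, and the long *Krt7* transcript shared stretches of at most 194 bases with 80 genes.

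No difference in the level of a luminal keratin was detected between gene trap and wildtype tumors. No gene of the table had an adjusted p under 0.05 (percent called 0 of 21034 genes in limma, with Benjamini-Hochberg adjustment), so 0 of the 4 keratins did. At an unadjusted p under 0.05 the fit called 479 genes (2.28%), again with 0 of the 4. The groups did not overlap for 111 genes (0.528%), and overlapped for all 4 keratins.

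*Krt7* averaged 2988 ± 498 in wildtype and 2983 ± 361 in gene trap tumors (SD, n = 5 each, as for the genes that follow), and its log2 fold change was 0.0042 (standard error 0.12, 95% confidence interval -0.25 to 0.26). *Krt8* was 21107 ± 2908 in wildtype and 20111 ± 2578 in gene trap tumors, a log2 fold change of -0.07 (standard error 0.12, interval -0.33 to 0.19). *Krt18* was 22348 ± 2988 and 24932 ± 6720, a log2 fold change of 0.13 (standard error 0.17, interval -0.23 to 0.49). *Krt19* was 5855 ± 1567 and 6131 ± 1967, a log2 fold change of 0.06 (standard error 0.24, interval -0.46 to 0.59). The unadjusted limma p was 0.972 for *Krt7*, 0.573 for *Krt8*, 0.452 for *Krt18* and 0.795 for *Krt19*, and the adjusted p was 0.99972 for each. The exact two-sided permutation test over the 252 arrangements of 5 and 5 tumors, whose smallest possible p is 0.00794, gave 0.976, 0.603, 0.516 and 0.857 in the same order. On a fold scale the intervals reached from 0.841 to 1.196 for *Krt7*, 0.798 to 1.14 for *Krt8*, 0.852 to 1.40 for *Krt18* and 0.727 to 1.502 for *Krt19*, so a change of moderate size in *Krt18* or *Krt19* was not detectable with these tumors. The small positive value of *Krt18* rested on gene trap replicate 2, since it was -0.0073 without it, and that of *Krt19* turned to -0.14 without wildtype replicate 1 and to -0.10 without gene trap replicate 5. The sign of *Krt7* was likewise not fixed, at -0.04 without gene trap replicate 2.

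**Figure D2:**
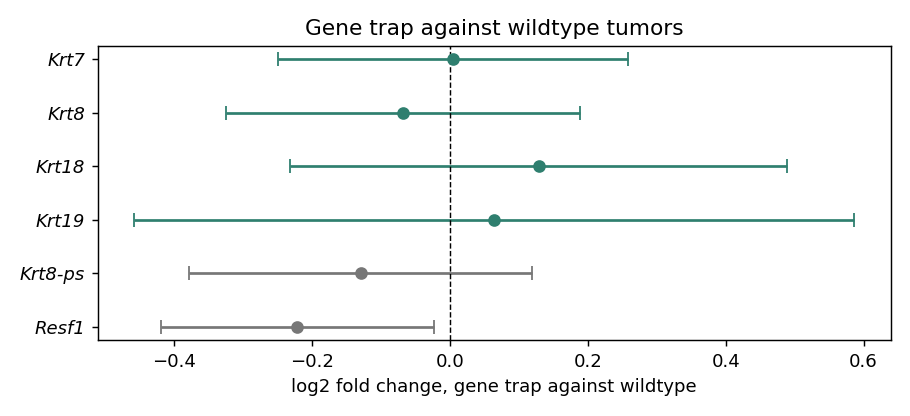
Log2 fold change of gene trap against wildtype tumors (x axis) with its 95% confidence interval from limma, for the 4 luminal keratins (green) and for *Krt8-ps* and *Resf1* (grey). The intervals of the 4 keratins all include 0 and are widest for *Krt19*, from -0.46 to 0.59.

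Bulk tumors can differ in their share of epithelial cells, so each keratin was also set against the mean log2 value of 18 luminal epithelial markers in the same tumor. Relative to these markers the log2 difference between gene trap and wildtype tumors was 0.02 for *Krt7*, -0.05 for *Krt8*, 0.15 for *Krt18* and 0.08 for *Krt19* (exact two-sided permutation test, p = 0.762, 0.524, 0.317 and 0.762, each 0.762 after Benjamini-Hochberg adjustment over the 4). These values were small and moved with single tumors, from -0.0097 without gene trap replicate 3 to -0.089 without wildtype replicate 1 for *Krt8*, and from 0.047 without gene trap replicate 2 to 0.21 without gene trap replicate 3 for *Krt18*. *Krt7* turned to -0.015 without gene trap replicate 5 and to -0.0086 without gene trap replicate 1, and *Krt19* to -0.084 without wildtype replicate 1 and to -0.078 without gene trap replicate 5. The spread between tumors became smaller on this scale for *Krt8* (SD within groups from 0.197 to 0.116 log2 units), *Krt7* (0.203 to 0.143) and *Krt18* (0.298 to 0.201), and little smaller for *Krt19* (0.455 to 0.415). The summed markers varied from 88499 (gene trap replicate 1) to 104645 (wildtype replicate 4).

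*Krt8* and *Krt7* were steady from tumor to tumor and *Krt19* was variable, with *Krt18* between them. Steadiness was measured as the SD of log2 values within groups. *Krt8* (0.197) and *Krt7* (0.203) varied least, with 37.6% and 39.4% of the 21034 tested genes below them. *Krt18* had an SD of 0.298 (58.5% of genes below it) and *Krt19* of 0.455 (78.9%), and the median of all tested genes was 0.251. The SD of *Krt18* fell to 0.220 without gene trap replicate 2, and that of *Krt19* to 0.350 without wildtype replicate 1. In linear terms the highest tumor exceeded the lowest by 1.48-fold for *Krt7*, 1.48-fold for *Krt8*, 1.92-fold for *Krt18* and 2.87-fold for *Krt19*.

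Abundant genes vary less between tumors, and among the 6383 genes with a mean of at least 1000, whose median SD was 0.148, the luminal keratins were on the variable side. Of these genes 71.5% were steadier than *Krt8*, 73.4% than *Krt7*, 89.3% than *Krt18* and 96.6% than *Krt19*. *Epcam* (0.109) and *Cdh1* (0.132) were also steadier than any luminal keratin. Within the keratin family the picture was different. Of 53 type I and type II keratins looked up, 18 were in the table and 17 were tested, and *Krt8* and *Krt7* had the smallest SD of these 17. The 13 other keratins ranged from 0.257 for the basal *Krt14* to 1.68 for *Krt6a*, a keratin of stressed epithelium, with a median of 0.520. Only *Krt14* of them was steadier than *Krt18*, and 5 were steadier than *Krt19*. *Krt6a* and the suprabasal *Krt10* (1.66) had far lower values, at a mean of 152 and 295. Each of the 13 other keratins had a lower mean than *Krt7* (2986), from 14 for *Krt4* to 1867 for *Krt14*. Within the family, steadiness and level could therefore not be told apart.

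**Figure D3:**
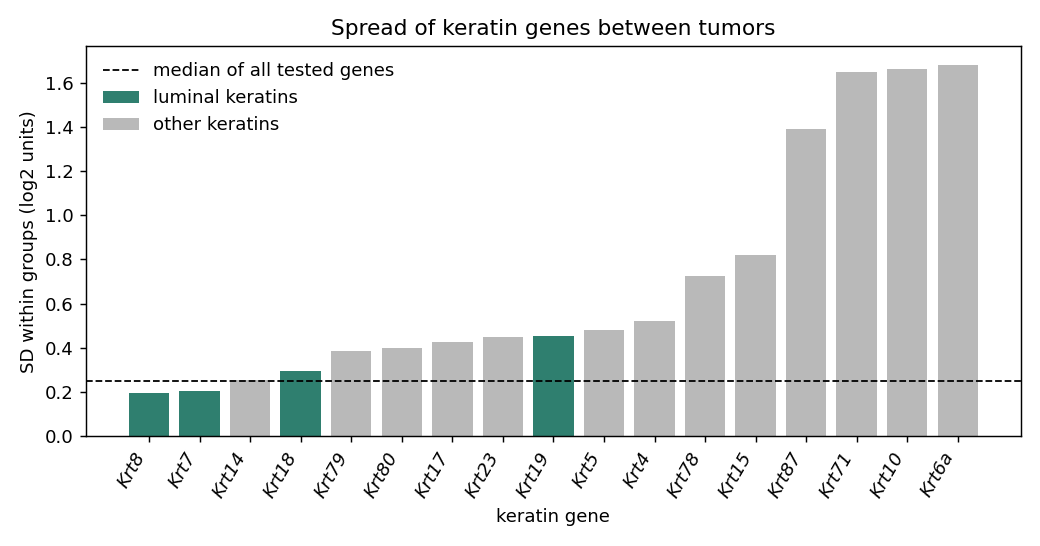
SD within groups of log2 values (y axis, 10 tumors) for the 17 tested keratins, ordered by size. Luminal keratins are green, other keratins are grey, and the dashed line is the median of all tested genes (0.251). *Krt8* and *Krt7* stand first, *Krt18* 4th and *Krt19* 9th.

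The ratio of *Krt8* to *Krt18*, the partners of the primary filament pair, was the steadiest of the partner ratios. It was 0.930, 0.902, 0.964, 0.947 and 0.979 in wildtype replicates 1 to 5, and 0.932, 0.620, 0.886, 0.879 and 0.841 in gene trap replicates 1 to 5. Apart from gene trap replicate 2, all tumors lay between 0.841 and 0.979. The group means were 0.944 ± 0.0297 (wildtype) and 0.832 ± 0.123 (gene trap, SD, n = 5 each).

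The ratio was thus lower in gene trap tumors by 0.20 log2 units (log2 difference -0.20, exact two-sided permutation p = 0.0238), but the adjusted p over the 4 partner ratios was 0.0952, and the groups overlapped through gene trap replicate 1. Without gene trap replicate 2 the difference was -0.09 (exact permutation p = 0.0397, adjusted p = 0.159). With other single tumors left out, the unadjusted exact permutation p was 0.00794 to 0.0873. It was over 0.05 without wildtype replicate 1 (0.0556), 3 (0.0794), 4 (0.0794) or 5 (0.0873, exact permutation test). The adjusted p was under 0.05 only without gene trap replicate 1, at 0.0317 (exact permutation test, unadjusted 0.00794, the smallest p this test can give). The direction, lower in gene trap tumors, was kept whichever tumor was left out, with values from -0.24 to -0.09. With *Krt8-ps* added to *Krt8* the difference was -0.21 (exact permutation p = 0.0556, adjusted p = 0.222) with gene trap replicate 2 and -0.09 without it (exact permutation p = 0.0873).

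The spread of the log2 ratio within groups was 0.169, against 0.357 for 2 genes of the same spread that vary independently. Without gene trap replicate 2 it was 0.0525. Over these 9 tumors, among 14121 genes with a mean of at least 100, *Krt18* was the gene with the steadiest ratio to *Krt8*, and *Krt8* was the gene with the steadiest ratio to *Krt18*, where the median gene had an SD of 0.240 against *Krt8* and 0.251 against *Krt18*. *Krt8-ps* came next after *Krt18* in its ratio to *Krt8* (0.0534). With gene trap replicate 2 included, *Krt18* ranked 1168th against *Krt8* and *Krt8* 386th against *Krt18*. *Krt7*, a type II chain like *Krt8* and so not its partner, ranked 1150th against *Krt8* over all 10 tumors (SD 0.169). Without gene trap replicate 2 it ranked 2344th (0.179). Over all 10 tumors a ratio to *Krt8* this steady was therefore not particular to its partner chain. These ranks are a description over tumors and were not tested.

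In gene trap replicate 2 the shift was in *Krt18* and not in *Krt8* when the values were taken as scaled in the table. On the log2 scale *Krt18* was 0.63 above the median of the other tumors, *Krt8* 0.09 above it, *Krt19* 0.17 above it and *Krt7* 0.29 above it. As a share of the column total, *Krt18* in this tumor was the highest of all (0.0839%), while *Krt8* (0.0520%) was near the lowest of all (0.0514%). How the shift divides between the genes thus depends on the scaling, whereas the ratio of *Krt8* to *Krt18* does not. Of the 14545 tested coding genes 6.45% deviated upward by more than *Krt18* in this tumor. Coding genes whose longest transcript has at least 1200 but under 1700 bases, the class of *Krt18* (1437 bases), had a median deviation of 0.17 there, and those from 1700 to under 2200 bases, the class of *Krt8* (1958 bases), of 0.09. *Krt8-ps* was 0.43 below the median of the others (deviation -0.43), and 72.9% of pseudogenes were lower still. The part of read assignment and of transcript length in the *Krt18* value of this tumor was not tested.

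**Figure D4:**
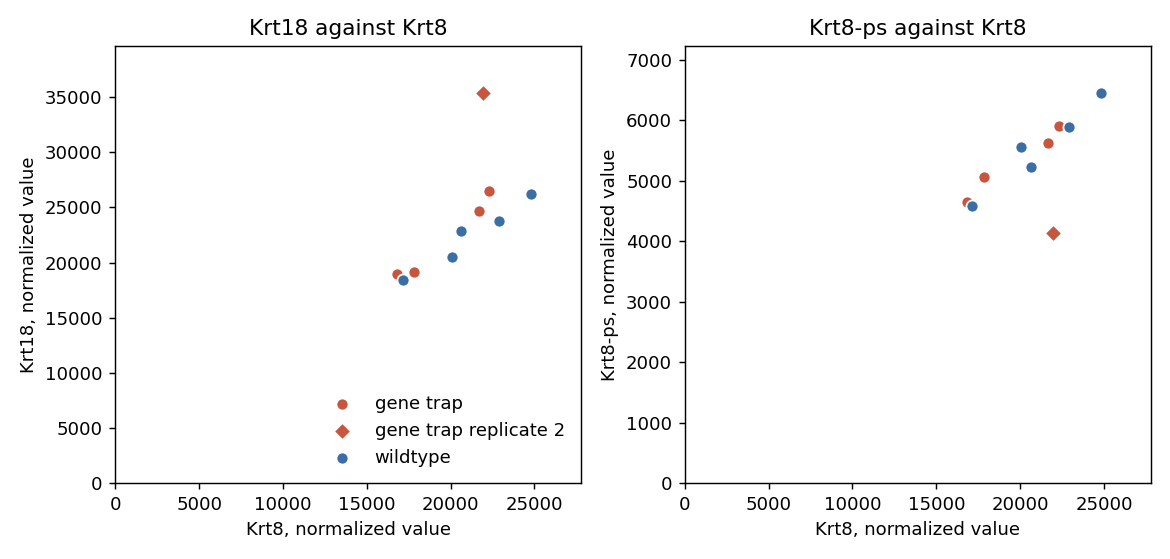
Normalized values of *Krt18* (left, y axis) and of *Krt8-ps* (right, y axis) against *Krt8* (x axis) in 5 wildtype (blue) and 5 gene trap (red) tumors. In both panels the values of 9 tumors rise together, and gene trap replicate 2 (diamond) lies above them for *Krt18* and below them for *Krt8-ps*.

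The other partner ratios were looser. *Krt8* to *Krt19* was 3.78 ± 0.883 in wildtype and 3.45 ± 0.711 in gene trap tumors (SD, n = 5 each), with the highest ratio, 5.29, in wildtype replicate 1 and the lowest, 2.40, in gene trap replicate 5. *Krt7* to *Krt18* was 0.134 ± 0.0128 and 0.124 ± 0.0231, from 0.0955 in gene trap replicate 2 to 0.153 in gene trap replicate 1. *Krt7* to *Krt19* was 0.545 ± 0.178 and 0.513 ± 0.110, from 0.358 in gene trap replicate 5 to 0.828 in wildtype replicate 1. Thus the extremes of both ratios over *Krt19* were set by the same 2 tumors, those with the lowest and the highest *Krt19*. The log2 differences between the groups were -0.13, -0.12 and -0.06, and the exact two-sided permutation p was 0.532, 0.405 and 0.817 in this order (adjusted over the 4 ratios 0.709, 0.709 and 0.817). The difference of *Krt8* to *Krt19* was -0.0045 without wildtype replicate 1, -0.0074 without gene trap replicate 5 and -0.21 without gene trap replicate 3. That of *Krt7* to *Krt18* was -0.036 without gene trap replicate 2, -0.078 without gene trap replicate 4 and -0.21 without gene trap replicate 1. That of *Krt7* to *Krt19* changed sign, to 0.11 without wildtype replicate 1 and to 0.063 without gene trap replicate 5, and reached -0.17 without wildtype replicate 5. The SD of the log2 ratio was 0.314 for *Krt8* to *Krt19*, 0.217 for *Krt7* to *Krt18* and 0.390 for *Krt7* to *Krt19*, each below the 0.496, 0.360 and 0.498 of independent genes. Most of 14121 genes were nevertheless steadier than *Krt19* against *Krt8* (median SD 0.257, *Krt19* ranked 9802nd from the steadiest) and against *Krt7* (0.265, 11622nd). *Krt18* ranked 3360th against *Krt7*. Against the variable *Krt19* (median 0.486) *Krt8* ranked 36th and *Krt7* 581st.

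**Figure D5:**
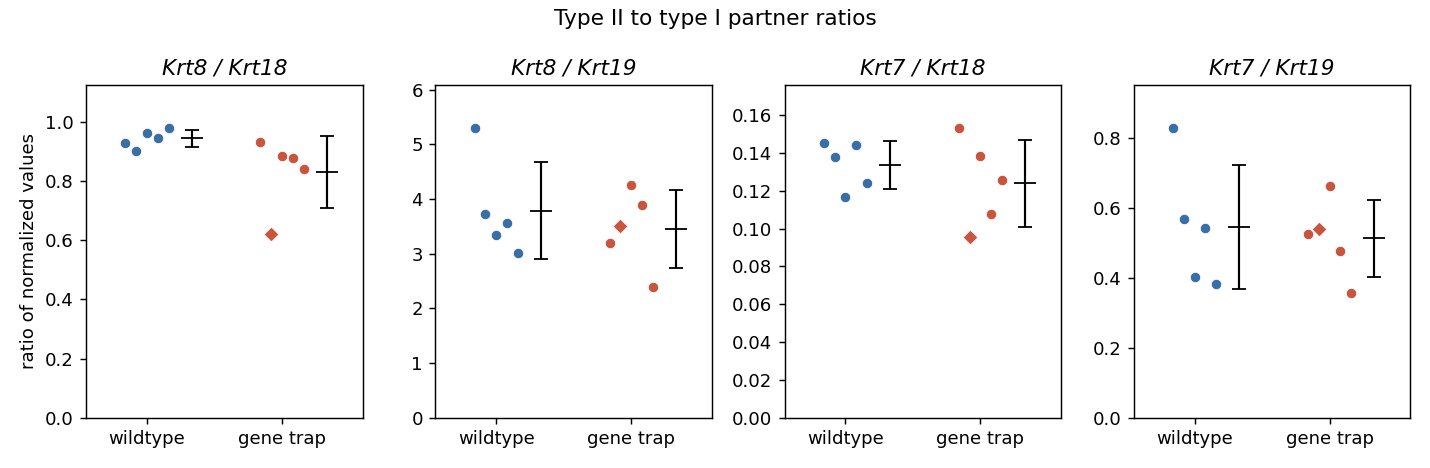
Ratio of normalized values of a type II to a type I luminal keratin (y axis) in 5 wildtype (blue) and 5 gene trap (red) tumors, with the mean ± SD of each group. Points are tumors in order of replicate number. *Krt8* to *Krt18* is the tightest, with all tumors but gene trap replicate 2 (diamond, 0.620) between 0.841 and 0.979.

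The messages of the type II and of the type I luminal keratins were also summed, and no protein was measured. Per kilobase of coding sequence the type II sum came to 0.739 ± 0.0312 of the type I sum in wildtype and 0.659 ± 0.0873 in gene trap tumors (SD, n = 5 each). The lowest value was 0.526 in gene trap replicate 2, and the others lay between 0.616 and 0.792. With *Krt8-ps* counted as *Krt8* the values were 0.908 ± 0.0379 and 0.805 ± 0.124. Per kilobase of coding sequence the type I messages exceeded the type II messages in every tumor, with or without *Krt8-ps*. By normalized value this depended on the pseudogene. Type II was above type I in 0 of 10 tumors without *Krt8-ps* (ratios of 0.608 to 0.915) and in 7 of 10 with it (0.707 to 1.13). *Krt8* made up 86.8% ± 1.35 of the type II luminal messages in wildtype and 86.2% ± 1.29 in gene trap tumors, and *Krt18* 78.7% ± 3.70 and 79.4% ± 4.51 of the type I luminal messages (SD, n = 5). The makeup of the type II side was therefore within 85.0% to 88.5% in all tumors, and that of the type I side within 73.1% to 84.4%.

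Across the 10 tumors each pair of luminal keratins was positively correlated. For *Krt8* and *Krt18* Pearson's r was 0.76 (permutation p = 0.00904, adjusted over 6 pairs 0.0271) and Spearman's rho 0.84 (permutation p = 0.00327, adjusted 0.0172). For *Krt8* and *Krt19* r was 0.79 (permutation p = 0.00552, adjusted 0.0271) and rho 0.82 (permutation p = 0.00575, adjusted 0.0172). These 2 pairs passed the adjusted threshold. Correlations of this size were not particular to keratins, since over 14121 genes *Krt8* ranked 1254th among those that followed *Krt18* and 28th among those that followed *Krt19*. Both relations rested in part on wildtype replicate 1 and gene trap replicate 3, the tumors farthest from the median of *Krt8*, since without these r fell to 0.62 (exact permutation p = 0.101) for *Krt18* and to 0.48 (exact permutation p = 0.224) for *Krt19*. With single tumors removed, the adjusted p of *Krt8* and *Krt18* rose above 0.05 without wildtype replicate 1 or gene trap replicates 1, 3 or 5 (up to 0.101), and that of *Krt8* and *Krt19* without wildtype replicate 1 or gene trap replicate 3 (up to 0.101, exact permutation test). Without gene trap replicate 2, r of *Krt8* and *Krt18* was 0.94 over 9 tumors (exact permutation p = 0.000355, adjusted 0.00213).

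The remaining pairs did not pass. Pearson's r was 0.67 for *Krt7* and *Krt18* (permutation p = 0.0318, adjusted 0.0637), 0.63 for *Krt7* and *Krt8* (p = 0.0524, adjusted 0.0786), 0.60 for *Krt18* and *Krt19* (p = 0.0688, adjusted 0.0825) and 0.52 for *Krt7* and *Krt19* (p = 0.128, adjusted 0.128), all by permutation. Spearman's rho was 0.67, 0.66, 0.71 and 0.48 in the same order (permutation p adjusted over the 6 pairs 0.0516, 0.0516, 0.0516 and 0.167). Without the 2 tumors farthest from the median of the first gene, r was 0.53, 0.37, 0.71 and 0.53. Leaving out gene trap replicate 2 brought *Krt18* and *Krt19* to r = 0.79 (exact permutation, adjusted p = 0.0203), and leaving out gene trap replicate 4 brought *Krt7* and *Krt18* to 0.73 (adjusted p = 0.0425, exact permutation). Relative to the group means the correlations were of similar size, with 0.84 for *Krt8* and *Krt18* and 0.82 for *Krt8* and *Krt19*.

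The genes whose log2 values followed each keratin most closely were taken from the 14121 genes with a mean of at least 100, as a description over 10 tumors. For *Krt8* they included *Lin37* (r = 0.93), *S100a16* (0.91), *Sra1* (0.90) and *Arl6ip5* (0.88). For *Krt18* they were *Mrpl23-ps1* (0.97), *Prrg2* (0.97), *Sec11a* (0.97), the luminal transcription factor *Gata3* (0.96) and *Tssc4* (0.96), all measured with gene trap replicate 2 as the highest *Krt18* tumor, and between 0.90 and 0.94 without it. For *Krt7* they were *Lgals3* (0.95), which encodes galectin-3, *Syngr2* (0.92), *Slc9a3r1* (0.91), *Oplah* (0.91) and *Tm4sf1* (0.89). For *Krt19* they were *Stat5a* (0.91), a transcription factor of prolactin signalling, *Gemin7* (0.89), *Zbtb8a* (0.89), *Glul* (0.89), which encodes glutamine synthetase, and *Rhpn2* (0.88). By the same measure *Krt19* ranked 100th, *Krt18* 173rd and *Krt7* 788th among the genes that followed *Krt8*, and without gene trap replicate 2 *Krt18* ranked 5th, *Krt19* 318th and *Krt7* 1634th. Among the genes that followed *Krt18*, *Krt8* ranked 1254th, *Krt7* 2022nd and *Krt19* 2591st. Without gene trap replicate 2 these ranks were 10th, 1505th and 425th.

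The other genes of keratin filaments and of the epithelium gave no call either. Of the 10 tested type II keratins (26 looked up), 0 passed and the median log2 fold change was -0.16, and of the 7 tested type I keratins (27 looked up), 0 passed and the median was 0.06, against a median of 0.0047 over all tested genes. The basal keratin *Krt17* had the smallest unadjusted p of the keratins, at 0.0174 (limma, adjusted p = 0.99972), with a mean of 716 in wildtype and 451 in gene trap tumors and a log2 fold change of -0.63. Of 18 tested genes that link or anchor keratin filaments, such as plectin (*Plec*, log2 fold change 0.16) and desmoplakin (*Dsp*, 0.10), 0 passed and the median was -0.02. Of 10 other intermediate filament genes, such as vimentin (*Vim*, -0.21) and lamin A (*Lmna*, 0.0073), 0 passed and the median was -0.11. Of 18 luminal epithelial markers and 14 luminal transcription factors 0 passed, with medians of -0.01 and 0.02.

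The marker lists of other cells of the tumor gave 0 calls as well. All 8 basal and myoepithelial markers, *Krt5* and *Krt14* among them, had a negative log2 fold change (median -0.34). Such a uniform sign was also seen for other cells, with 8 of 8 endothelial and 5 of 5 adipocyte markers lower and 9 of 10 fibroblast markers higher. The summed level of the basal and myoepithelial markers was 7295 to 10590.3 in wildtype and 5644 to 8037 in gene trap tumors, so the groups overlapped. *Trp63*, which defines basal cells, was 833 ± 221 and 639 ± 101 (SD, n = 5). For fibroblast markers (10 tested) the median was 0.10, for endothelial (8) -0.11, for macrophage (10) -0.08, for lymphocyte (6) -0.07, for adipocyte (5) -0.48 and for skeletal muscle markers (6) 0.05. The summed fibroblast markers ranged from 40850 to 87288 in wildtype and from 53826 to 123758 in gene trap tumors, and the summed adipocyte markers from 2639 to 10467 and from 1614 to 5741. No gene of the table had a value of 0 in the tumors used, so a value above 0 does not show that a cell type was present. Only 7 of 10 lymphocyte, 5 of 8 adipocyte and 6 of 8 skeletal muscle markers were in the table. Whether the share of these cells moved with the keratin values was not tested.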

How the data were processed

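RNA-seq values of 5 wildtype and 5 gene trap tumors from MMTV-PyMT mice were examined. The authors deposited normalized estimated counts per gene, a signal that is fractional, and the submitters' processing notes name Partek, STAR 2.7.8a, DESeq2 and build mm39. Median ratio scaling was inferred from these notes and from the values, since the methods name it for human RNA-seq. The annotation and the counter are not given in the sources used here. The table has 16 columns, of which 10 matched a tumor by name and 6 were not used. Only 2.24% of values under 20 lay within 0.01 of a whole number, so reads and depth could not be recovered. Intervals and p-values cover the spread between these tumors.

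A pseudocount of 1 was added before conversion to log2, and limma (version 3.58.1 in R 4.3.3) was fitted to genes with a mean of at least 10, on the genotype, with a variance trend and Benjamini-Hochberg adjustment. A fold change on this scale understates that of low genes. The plan held a count-based test in reserve for whole counts, which the table does not hold. Ratios were tested by exact two-sided permutation, and correlations over 10 tumors with 100000 resamples. Of the gene IDs, 22899 (97.0%) had a symbol. Lengths and similar transcripts (blastn 2.17.0, at least 90% identity over 100 bases) came from GENCODE release M21 and promoters from RefSeq, both on GRCm38.p6, which is not the build of the table, so no coordinates of the table's genes are given. Tumors with the same replicate number in the groups are different animals and were not treated as pairs.

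Genes named are the 4 keratins, *Resf1*, members of the lists and the 5 genes most correlated with each keratin. For *Krt8*, 1 of these is not reported here. The members and lists were chosen with earlier results of these data known. *Krt8-ps* and *Gm5200* were named because their sequence is close to a member. The calculations were tested on simulated data. Alternatives were other pseudocounts, filters and scalings, no variance trend, weights per tumor, a replicate block and each tumor left out. Addition of *Krt8-ps* to *Krt8* in the fold change, and the ranks, class medians and adjusted values without gene trap replicate 2, were chosen after seeing the data.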

Additional observations from a re-analysis of the deposited data

Results flagged for a closer look

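In 38 groups of 5 tumors, from 19 measures of the luminal keratins, 2 values were separated by a wide gap from the rest of their group, and chance alone gives about 1.9. Both belonged to gene trap replicate 2, and both contain *Krt8-ps*. The ratio of *Krt8-ps* to *Krt8* was 0.188 in this tumor and between 0.260 and 0.284 in the other gene trap tumors. The ratio of *Krt8* plus *Krt8-ps* to *Krt18* was 0.737 in this tumor and between 1.06 and 1.196 in the other gene trap tumors. The cause was not tested.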

How the results depend on the processing

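No keratin reached an adjusted p under 0.05 and no gene was called under any of the 19 alternatives of the fit across genes, and the number with an unadjusted p under 0.05 was 308 to 692 when single tumors were left out. Of the 77 alternatives of the 4 fold changes, 65 kept their direction. The log2 fold change of *Krt7* turned to -0.023 when columns were scaled to the same total and to -0.042 with weights per tumor, which also turned *Krt18* to -0.020 and *Krt19* to -0.017. With single tumors left out, the log2 fold change was -0.050 to 0.093 for *Krt7*, -0.14 to -0.0062 for *Krt8*, -0.0073 to 0.22 for *Krt18* and -0.14 to 0.21 for *Krt19*. Of 50 alternatives of the ratios, 47 gave the same direction and call. With single tumors left out the log2 difference was -0.24 to -0.095 for *Krt8* to *Krt18*, -0.21 to -0.0045 for *Krt8* to *Krt19*, -0.21 to -0.036 for *Krt7* to *Krt18* and -0.17 to 0.11 for *Krt7* to *Krt19*, the last turning without wildtype replicate 1 or gene trap replicate 5. Relative to epithelial markers *Krt7* turned to -0.033 with *Epcam* alone, and leaving out single tumors gave -0.015 to 0.086 for *Krt7*, -0.089 to -0.0097 for *Krt8*, 0.047 to 0.21 for *Krt18* and -0.084 to 0.20 for *Krt19*. Of 72 alternatives of the correlations 63 kept their call. With quantile normalization r of *Krt8* and *Krt18* was 0.61 (permutation test, adjusted p = 0.0871). With single tumors left out, r was 0.71 to 0.94 for *Krt8* and *Krt18*, 0.73 to 0.84 for *Krt8* and *Krt19*, 0.48 to 0.79 for *Krt18* and *Krt19* and 0.62 to 0.73 for *Krt7* and *Krt18*. The share of genes steadier than each keratin moved to 73.4% for *Krt7*, 71.5% for *Krt8* and 89.3% for *Krt18* among genes with a mean of at least 1000, which vary less.

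With the replicate number as a block, 0 genes were called, the log2 fold changes were unchanged in size (in limma *Krt8* -0.07 with an unadjusted p of 0.535 and *Krt18* 0.13 with 0.382), and *Krt8* to *Krt18* gave p = 0.125 in an exact sign-flip test over 5 pairs. Same-numbered tumors did not deviate together (mean correlation -0.0098, range -0.16 to 0.15, over 0.1 in 2 of 5 numbers). The other alternatives changed no call or direction. The cause of these changes was not tested. The depth is unknown, and its part in the precision could not be assessed.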
